A study of Homo sapiens with 8 samples.

Results

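Collagens are secreted or membrane-bound proteins whose chains wind into a triple helix and assemble outside the cell. The fibrillar types form the fibrils of connective tissue and tumor stroma, type IV forms the sheet of the basement membrane, and the remaining types coat fibrils, build beaded filaments or anchor sheets to fibrils. Mesenchymal tumor cells, like fibroblasts, are known to transcribe many of these genes. The collagen genes were taken as every gene symbol made of COL, a type number, the letter A and a chain number, which gave 43 of the 23228 genes listed. By class, 11 were fibrillar, 8 were of the basement membrane (type IV, COL15A1 and COL18A1) and 24 were other collagens. COL26A1 is listed under an older symbol, EMID2, and lay outside this rule.

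RNA-seq was performed on BT-549, an established human triple negative breast cancer (TNBC) line with mesenchymal features, so all values describe 1 cell line in culture, without a stroma. Cells were treated for 24 h with vehicle (DMSO), with 100 nM EC359, an inhibitor of the leukemia inhibitory factor receptor (LIFR), with 10 µM vorinostat (SAHA), a histone deacetylase inhibitor (HDACi), or with EC359 and vorinostat at those doses. Each of these 4 groups had 2 libraries, 8 in all. The paper states that its in vitro assays used biological replicates, but the labels do not say whether the libraries of a group came from separate cultures. The p-values therefore measure the spread between these libraries, which may be technical. The tests pooled this spread over the 4 groups, although the EC359 libraries differed most. Over the tested genes, the SD of the log2 difference between a group's libraries was 0.56 for EC359. It was 0.35 for vehicle, 0.31 for vorinostat and 0.45 for the combination.

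The libraries held 19069450 to 24759041 counts on genes, and 13694 genes passed the filter on low counts and were tested. Levels are normalized CPM, counts scaled to a common library size. A gene was called when edgeR's quasi-likelihood test gave a Benjamini-Hochberg adjusted p under 0.01 and the absolute log2 fold change was over 1. ESR1 and PGR, the hormone receptor genes, lay at or below 1.02 CPM in all libraries. ESR1 lay at 0 CPM in both vehicle libraries and at 1.02 and 0.562 with the combination. It was called higher there against vehicle, having passed the filter only through the combination. ERBB2 lay between 76.1 and 102 CPM without vorinostat and between 12.03 and 15.8 CPM with it, and was called lower against vehicle in both groups with vorinostat. The mesenchymal gene VIM lay at 2166 and 2056 CPM with vehicle and 3419 and 3258 with EC359, and it rose to 4965 and 4888 with vorinostat and to 9309 and 9442 with the combination. Of the other mesenchymal markers, ZEB1 lay at 86.2 and 80.8, 208 and 142, 43.2 and 46.1, and 74.2 and 75.0 CPM in the same order and rose with EC359, while CDH2 (22.7 to 39.5 CPM) and SNAI2 (144 to 380 CPM) were not called against vehicle. Their part in the collagen values was not tested. The 6 epithelial markers summed to 3.35 to 8.37 CPM without vorinostat, to 26.6 and 14.2 CPM in the vorinostat libraries and to 3.58 and 27.3 CPM in the combination libraries. The 6 blood and endothelial markers summed to at most 1.19 CPM. LIFR, the target of EC359, had log2 fold changes against vehicle of -0.74 after EC359, 1.65 after vorinostat and 2.21 after both.

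Of the 43 collagens, 40 had at least 1 count and 26 passed the filter, where 13694 of all 23228 genes passed. Calls are given below by test, beside the shares of all tested genes. The number that passed was 9 of 11 fibrillar, 6 of 8 basement membrane and 11 of 24 other collagens. Among the 26, 19 lay over the filter's limit in both libraries of all 4 groups. The other 7 did so in some groups only and had to differ to be tested at all. These were COL5A3, COL4A4 and COL20A1 with vorinostat and the combination, COL21A1 with the combination, COL2A1 and COL17A1 with EC359, and COL28A1 with vehicle. COL11A1, COL19A1 and COL25A1 had no count in any library. The remaining 14 below the filter had total counts over all 8 libraries of 53 for COL9A2, 45 for COL9A3, 40 for COL8A2, 37 for COL15A1, 36 for COL14A1, 31 for COL24A1 and 20 for COL4A3. COL13A1 and COL23A1 had 7 each, COL22A1 and COL10A1 had 6 each, COL6A5 had 3, and COL9A1 and COL6A6 had 1 each.

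The first question was what share of the counted transcripts collagens made up in each group. Summed over all 43 genes, collagens made up 16162 ± 132 CPM (SD, n = 2) with vehicle, 8859 ± 520 with EC359, 9283 ± 90.2 with vorinostat and 5269 ± 233 after both drugs. Both libraries of each treated group lay below both vehicle libraries, and both combination libraries lay below those of either single drug. As shares of the vehicle sum these were 54.8%, 57.4% and 32.6%. In raw counts, collagens took 1.65% and 1.64% of all gene counts in the vehicle libraries and 0.519% and 0.492% in the combination libraries. These values are shares of each library, so the amount of collagen RNA per cell was not measured. In bulk libraries, fewer cells of a type and less RNA per cell cannot be told apart. The sums were not tested, since the members were chosen with results known.

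The fibrillar genes held most of this sum and most of the difference. They summed to 13065 ± 5.12 CPM with vehicle, 6520 ± 458 with EC359, 7445 ± 39.4 with vorinostat and 3590 ± 197 in the combination, the last being 27.5% of vehicle. The basement membrane genes summed to 2242 ± 95.6, 1744 ± 43.0, 1283 ± 23.2 and 1167 ± 32.4 CPM in the same order. The other collagens summed to 855 ± 41.9, 595 ± 18.7, 555 ± 27.6 and 511 ± 3.39 CPM. In each of the 3 classes the vehicle libraries were the highest, and the vorinostat and combination sums of the basement membrane genes lay closer to each other than those of the fibrillar genes.

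**Figure D1:**
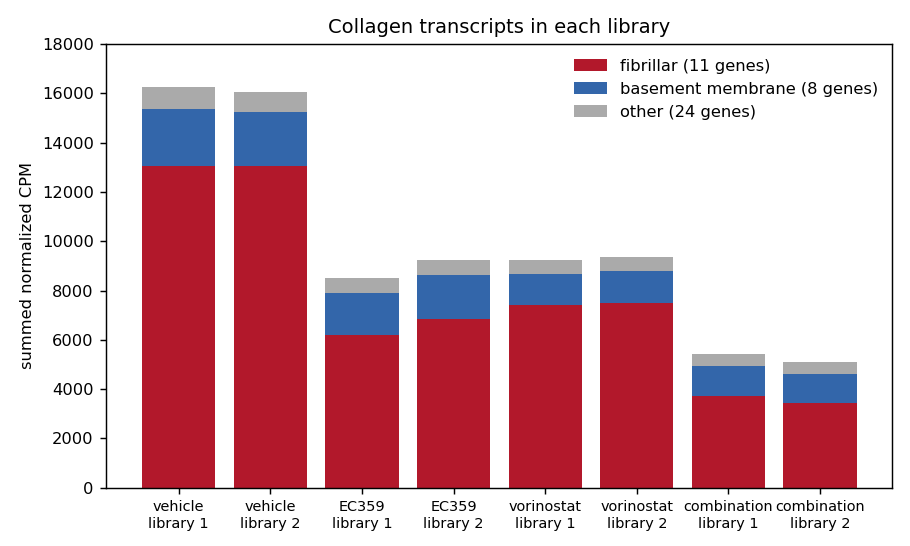
Summed normalized CPM of the 43 collagen genes in each of the 8 libraries, stacked by class (fibrillar, basement membrane, other). The vehicle libraries reach 16255 and 16068 CPM and the combination libraries 5434 and 5104 CPM, and the fibrillar part is the largest in every library.

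The comparisons with vehicle asked which collagens each treatment changed. EC359 gave 0 collagens called higher and 3 called lower, where 1.94% and 1.72% of all tested genes were called higher and lower. Vorinostat gave 4 higher and 8 lower, where the shares of all tested genes were 16.8% and 13.3%. The combination gave 5 higher and 12 lower, with 19.5% and 15.3% of all tested genes. The median log2 fold change over the 26 tested collagens was -0.43, -0.71 and -0.90 for the 3 comparisons, beside -0.02, 0.03 and 0.07 over all tested genes. Of the collagens called higher, COL4A4, COL5A3 and COL20A1 had passed the filter only through the groups with vorinostat. COL28A1, called lower with the combination, had passed it only through vehicle. These counts and medians are therefore a description. These comparisons share the vehicle libraries.

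Among the 12 abundant collagens, those with an average log2 CPM of at least 5, none was called higher in any comparison between groups. Their log2 fold changes were below 0 for 12 of 12 with EC359, 10 of 12 with vorinostat and 11 of 12 with the combination. Their medians were -0.71, -0.78 and -1.31, beside -0.02, 0.03 and 0.07 over all tested genes. Of these 12, 3 were called lower with EC359, 4 with vorinostat and 7 under both drugs. Over all tested genes, at any level, the shares called lower were 1.72%, 13.3% and 15.3%. Other genes at like levels were not compared, so these counts describe the 12 alone. All the collagens called higher were at low levels in vehicle cells, at 2.06 CPM or less. For COL4A4, COL5A3 and COL20A1 this followed from the filter, which they passed only through the groups with vorinostat.

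**Figure D2:**
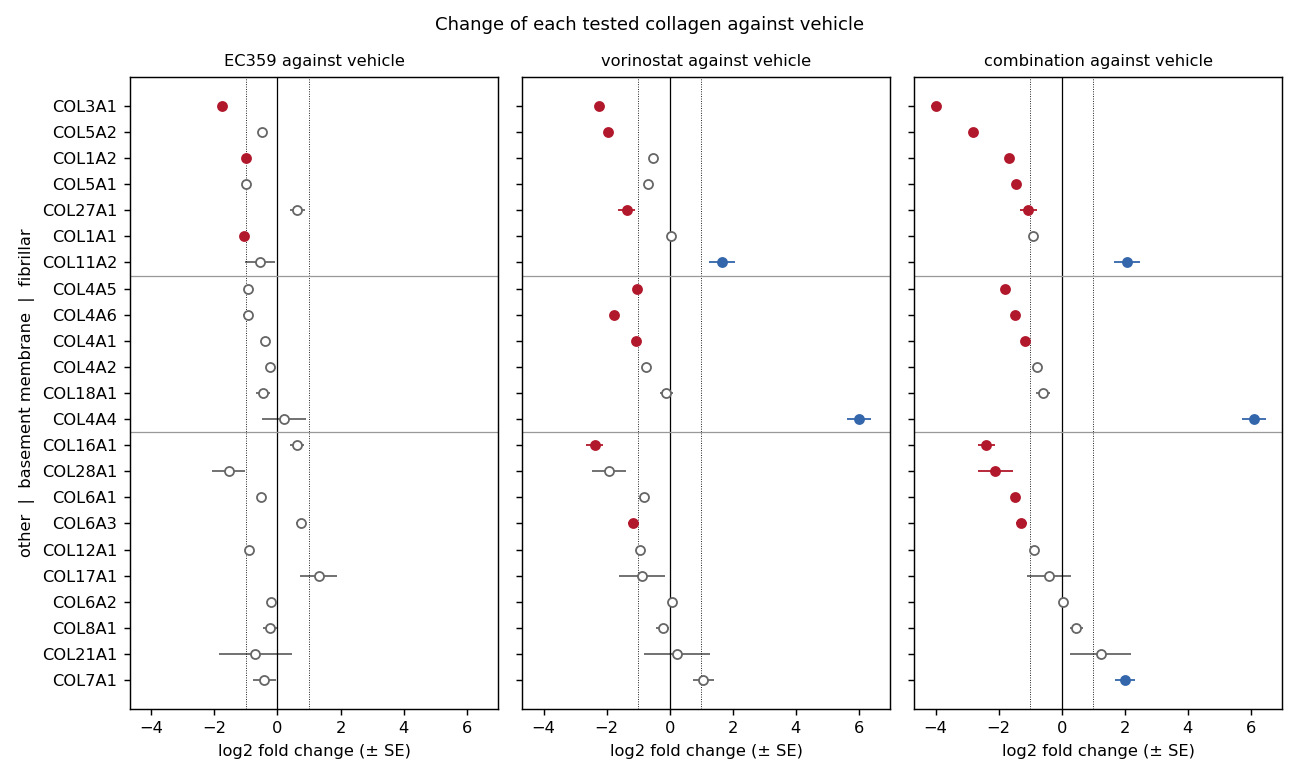
Log2 fold change (± SE) of 23 tested collagens in each treatment against vehicle, in 3 blocks by class. Filled points were called (red lower, blue higher), dotted lines mark a log2 fold change of 1 in each direction, and COL5A3, COL20A1 and COL2A1 are left out because vehicle had no count. COL3A1 moves from -1.76 with EC359 to -4.00 with the combination, while COL6A2 stays near 0 in all panels.

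Type III collagen, a homotrimer of COL3A1 chains that forms thin, extensible fibrils with type I, had the lowest log2 fold change of the tested collagens in EC359 and in the combination against vehicle. With vorinostat COL16A1 was lower. COL3A1 lay at 2586 and 2724 CPM with vehicle, 688 and 875 with EC359, 567 and 568 with vorinostat and 185 and 147 with the combination. The 4 groups did not overlap. COL3A1 was the only collagen called lower in all 3 comparisons with vehicle, which rests on the fold limit. At an adjusted p under 0.01 alone, COL1A2, COL5A1, COL5A2, COL4A1, COL4A5, COL4A6, COL6A1 and COL12A1 also lay lower in all 3. The log2 fold changes of COL3A1 were -1.76 ± 0.14 after EC359 (adjusted p = 5.3e-05), -2.23 ± 0.14 after vorinostat (1.8e-06) and -4.00 ± 0.15 after both (8.6e-08, edgeR's quasi-likelihood test here and below, ± SE). The combination also fell below each single drug, by 1.77 on the log2 scale against vorinostat (adjusted p = 4.4e-05) and by 2.24 against EC359 (1.4e-06). The interaction, which tests whether the change under EC359 differs with and without vorinostat, was -0.01 ± 0.19 on the log2 scale (adjusted p = 0.99). COL3A1 held 15.9% and 17.0% of collagen counts in the vehicle libraries and 3.41% and 2.88% in the combination libraries.

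Type I collagen, the main fibril of skin, bone and scar, joins COL1A1 and COL1A2 chains. COL1A1 lay at 2803 and 2640 CPM with vehicle, 1286 and 1311 with EC359, 2841 and 2796 with vorinostat and 1467 and 1392 with the combination. The groups with EC359 lay below those without it, and vorinostat libraries lay beside vehicle libraries. COL1A1 fell with EC359 (log2 fold change -1.07 ± 0.07, adjusted p = 2.3e-05). Its log2 fold change with vorinostat was 0.05 ± 0.07 (adjusted p = 0.55). Against vehicle the combination gave -0.93 ± 0.07 (4.6e-06) and against vorinostat -0.98 ± 0.07 (3.3e-05), both short of the fold limit.

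COL1A2 lay at 3699 and 3880 CPM with vehicle, 1692 and 2069 with EC359, 2611 and 2668 with vorinostat and 1256 and 1105 with the combination. Here the 4 groups were separate, with vorinostat below vehicle. COL1A2 fell by 1.01 on the log2 scale with EC359 (SE 0.11, adjusted p = 0.00029) and by 1.68 with the combination (SE 0.11, 1.5e-06), and it fell by 1.16 from vorinostat to the combination (0.00012). With vorinostat alone the change was -0.52 ± 0.11 (adjusted p = 0.0021), under the fold limit. In the fit on the vehicle and EC359 libraries alone, COL1A2 gave -0.99 (adjusted p = 0.018) and was not called. The EC359 call in the main fit lay at the fold limit. It was lost without vehicle library 2 (log2 fold change -0.98) and without EC359 library 1 (-0.87), and also, at -0.98, without either combination library.

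Since COL1A1 and COL1A2 share a trimer, their ratio was followed in counts per kilobase of transcript. The log2 ratio COL1A1/COL1A2 was -0.62 and -0.78 with vehicle, -0.62 and -0.88 with EC359, -0.10 and -0.15 with vorinostat and 0.00 and 0.11 with the combination. The libraries with vorinostat did not overlap those without it. Together the type I chains took 40.0% and 40.6% of collagen counts with vehicle, 35.1% and 36.6% with EC359, 59.1% and 58.4% with vorinostat and 50.1% and 48.9% with the combination.

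**Figure D3:**
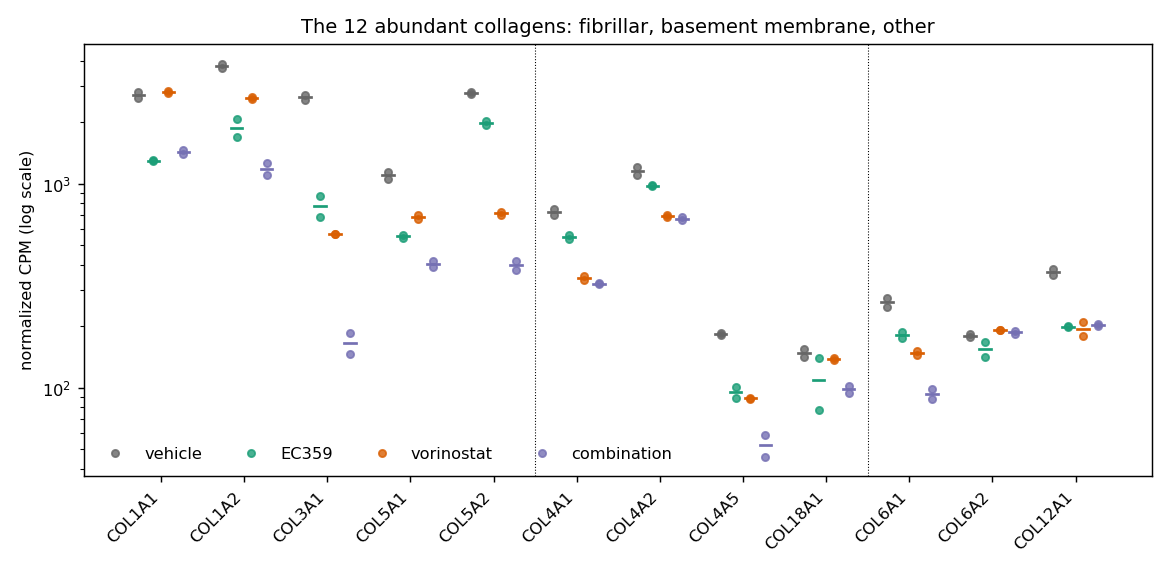
Normalized CPM on a log scale of the 12 abundant collagens, with 1 point per library and a short line at each group mean. Dotted lines part the fibrillar, basement membrane and other genes. The combination libraries of COL3A1 (185 and 147 CPM) lie farthest below vehicle, and those of COL6A2 (189 and 183 CPM) lie beside it.

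Type V collagen is a minor partner in type I fibrils that starts and limits their growth. COL5A1 lay at 1140 and 1058 CPM with vehicle, 561 and 541 with EC359, 668 and 702 with vorinostat and 391 and 417 with the combination, without overlap between groups. It fell with the combination (log2 fold change -1.44 ± 0.08, adjusted p = 7.7e-07). With EC359 it gave -0.996 ± 0.08 (7.2e-05), just short of the fold limit, and with vorinostat -0.68 ± 0.08 (8.3e-05).

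COL5A2, which lies in the genome beside COL3A1, lay at 2818 and 2755 CPM with vehicle, 1943 and 2032 with EC359, 706 and 725 with vorinostat and 419 and 375 with the combination. Both groups with vorinostat lay far below both groups without it. COL5A2 fell with vorinostat (-1.96 ± 0.08, adjusted p = 2.8e-07) and with the combination (-2.81 ± 0.09, 3.9e-08), and from EC359 to the combination (-2.32 ± 0.08, 1.1e-07). Its change with EC359 was -0.49 ± 0.08 (0.0036). Per kilobase, the log2 ratio COL5A1/COL5A2 was -1.61 and -1.69 with vehicle, -2.10 and -2.21 with EC359, -0.39 and -0.35 with vorinostat and -0.41 and -0.15 with the combination.

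COL5A3, the third type V chain, went the other way and is shown with COL5A1 by sequence. It had 0 counts in both vehicle libraries, 0 and 1 with EC359, 94 and 117 with vorinostat and 37 and 53 with the combination. In CPM the vorinostat libraries lay at 4.83 and 4.97 and the combination libraries at 1.89 and 2.71, below vorinostat. Against a floor of 3 counts over the vehicle group, COL5A3 was at least 69.7-fold higher with vorinostat and at least 32.7-fold higher with the combination. Both were called, with adjusted p of 2.1e-05 and 6e-05. COL5A3 was tested only through the groups with vorinostat, and both calls were kept without the filter. The ratio of combination to EC359, which had 1 count, was 101 (exact 95% counting interval 17.7 to 4039). The difference between combination and vorinostat, -1.09 ± 0.35 on the log2 scale, had an adjusted p of 0.048 and was not called.

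To set the promoters of the type V chains side by side, the 250 bases before the RefSeq start of COL5A1 (GRCh37, chr9:137533399-137533648, plus strand) and of COL5A3 (chr19:10121181-10121430, minus strand) are printed 5′ to 3′, ending at the base before the start. Capitals mark the letters CCAAT (the CCAAT box), TATAAA (the TATA box) and GGGCGG (the GC box), which were searched on both strands and do not overlap here.
COL5A1: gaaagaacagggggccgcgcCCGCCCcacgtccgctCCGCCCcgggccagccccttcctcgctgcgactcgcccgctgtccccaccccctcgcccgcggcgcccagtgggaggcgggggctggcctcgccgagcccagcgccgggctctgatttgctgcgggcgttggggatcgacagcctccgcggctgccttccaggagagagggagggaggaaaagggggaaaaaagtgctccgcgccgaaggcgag
COL5A3: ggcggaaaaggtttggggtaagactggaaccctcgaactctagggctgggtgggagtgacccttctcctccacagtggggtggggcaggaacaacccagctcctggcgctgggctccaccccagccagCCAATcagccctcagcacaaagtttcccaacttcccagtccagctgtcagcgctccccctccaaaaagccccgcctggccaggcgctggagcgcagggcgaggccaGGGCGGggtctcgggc
COL5A1 held GGGCGG on the reverse strand at 2 places and no CCAAT. COL5A3 held 1 CCAAT and 1 GGGCGG. Over 35116 RefSeq promoters of this length, 32.01% held CCAAT, 10.72% TATAAA and 42.64% GGGCGG on either strand. Of 43 listed promoters of 31 collagen genes, 27.91%, 18.6% and 55.81% did. COL1A1, COL1A2, COL3A1 and COL5A2 were not among those listed.

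The other fibrillar genes were low. COL11A2, a chain of the cartilage fibril type XI, lay at 1.51 and 0.794 CPM with vehicle, 0.536 and 1.07 with EC359, 2.98 and 4.29 with vorinostat and 4.25 and 5.46 with the combination. All 4 libraries with vorinostat lay above the 4 without it. COL11A2 rose with vorinostat (1.66 ± 0.40, adjusted p = 0.0055) and with the combination (2.07 ± 0.40, 0.0014). The vorinostat call was lost without any of 5 libraries, with log2 fold changes of 1.27 without vehicle library 2, 1.89 and 1.37 without vorinostat library 1 and library 2, and 1.67 without either combination library. The combination call was lost without vehicle library 2 (1.68) or combination library 2 (1.84).

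COL27A1, a short fibrillar chain of developing cartilage, lay at 13.2 and 10.6 CPM with vehicle, 23.0 and 13.7 with EC359, 4.89 and 4.42 with vorinostat and 5.02 and 6.38 with the combination. Both groups with vorinostat lay below both groups without it. It fell with vorinostat (-1.35 ± 0.27, adjusted p = 0.0018), with the combination (-1.06 ± 0.27, 0.006) and from EC359 to the combination (-1.69 ± 0.26, 0.00038). The combination call was lost without any single vehicle, vorinostat or combination library (log2 fold changes -1.28 to -0.89). The vorinostat call was lost without vehicle library 1 (-1.18) and without vorinostat library 1 (-1.43) or library 2 (-1.28).

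COL2A1, the cartilage fibril chain, was called in no comparison. It lay at 0 CPM in both vehicle libraries, 2.27 and 0.964 with EC359, 11.8 and 0.170 with vorinostat and 0 and 0.0511 with the combination. The vorinostat value came from library 1, which had 229 counts where library 2 had 4. Vorinostat library 1 also had the higher epithelial marker sum of its group, 26.6 against 14.2 CPM, while combination library 2, at 27.3 CPM, had 1 count of COL2A1. The part of these markers in the collagen values was not tested.

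Type IV collagen genes lie in head-to-head pairs that share a control region, and the pairs COL4A1 with COL4A2, COL4A3 with COL4A4 and COL4A5 with COL4A6 differ in the trimers they supply. The COL4A1 and COL4A2 chains form the basement membrane network found in nearly all tissues. The 100 bases that follow the COL4A1 start on the plus strand of GRCh37, within the 126 bases between the starts of the pair, and the 190 bases before the COL4A4 start on its own minus strand are printed 5′ to 3′ from RefSeq promoters, since COL4A1 was lower and COL4A4 was higher under vorinostat. Capitals mark the same letters.
COL4A1-COL4A2 interval, chr13:110959505-110959604: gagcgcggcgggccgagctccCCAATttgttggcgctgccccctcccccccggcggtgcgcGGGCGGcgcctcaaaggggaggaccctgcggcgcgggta
COL4A4, chr2:228028922-228029111: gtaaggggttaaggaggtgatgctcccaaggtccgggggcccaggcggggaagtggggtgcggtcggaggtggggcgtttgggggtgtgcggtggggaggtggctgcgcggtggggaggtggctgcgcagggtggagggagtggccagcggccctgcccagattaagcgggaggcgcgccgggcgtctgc
The COL4A1-COL4A2 interval held 1 CCAAT and 1 GGGCGG, and the COL4A4 stretch held none of the 3 motifs. The starts of COL4A4 and COL4A3 lie 418 bases apart, and those of COL4A6 and COL4A5 lie 1415 bases apart.

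COL4A1 lay at 752 and 702 CPM with vehicle, 563 and 538 with EC359, 336 and 354 with vorinostat and 323 and 325 with the combination. It fell with vorinostat (-1.07 ± 0.08, adjusted p = 5e-06) and with the combination (-1.17 ± 0.08, 2.3e-06), and gave -0.40 ± 0.08 with EC359 (0.0098). COL4A2 lay at 1203 and 1109, 970 and 981, 686 and 703, and 689 and 660 CPM in the same order. Its groups stood in the same order as those of COL4A1, apart from vorinostat and the combination, which overlapped. COL4A2 was not called, at -0.74 ± 0.08 with vorinostat (3.7e-05) and -0.78 ± 0.08 with the combination (2.2e-05). Per kilobase, the log2 ratio COL4A1/COL4A2 was -0.70 and -0.68 with vehicle, -0.80 and -0.89 with EC359, -1.05 and -1.01 with vorinostat and -1.11 and -1.04 with the combination.

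COL4A5 and COL4A6, the X-linked pair of smooth muscle and epithelial basement membranes, both fell in the groups with vorinostat. COL4A5 lay at 185 and 181 CPM with vehicle, 89.0 and 101 with EC359, 87.7 and 89.2 with vorinostat and 58.5 and 45.8 with the combination. The EC359 and vorinostat libraries overlapped, and those of the combination were the lowest. COL4A5 fell with vorinostat (-1.04 ± 0.12, adjusted p = 7.9e-05) and with the combination (-1.81 ± 0.13, 2.4e-06), and gave -0.94 ± 0.12 with EC359 (0.001). COL4A6 lay at 29.4 and 27.8, 14.4 and 15.4, 9.16 and 7.82, and 11.1 and 9.55 CPM. Here vorinostat libraries, not those of the combination, were the lowest. COL4A6 fell with vorinostat (-1.76 ± 0.15, 8.9e-06) and with the combination (-1.47 ± 0.15, 2e-05), and gave -0.94 ± 0.14 with EC359 (0.0022).

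COL4A4, a chain of the mature kidney basement membrane, was barely counted without vorinostat, with 3 and 2 counts in the vehicle libraries and 4 and 2 in the EC359 libraries. With vorinostat it had 166 and 172 counts and with the combination 142 and 188. In CPM the vorinostat libraries lay at 8.54 and 7.31, overlapping those of the combination at 7.27 and 9.60. COL4A4 rose with vorinostat (6.01 ± 0.37, adjusted p = 1.7e-06) and with the combination (6.10 ± 0.37, 1.1e-06). It was tested only through the groups with vorinostat, and it was called without the filter too. Its head-to-head neighbor COL4A3, below the filter, had 0 counts in the 4 libraries without vorinostat, 9 and 7 with vorinostat and 4 and 0 with the combination, so its few counts lay in the same groups.

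**Figure D4:**
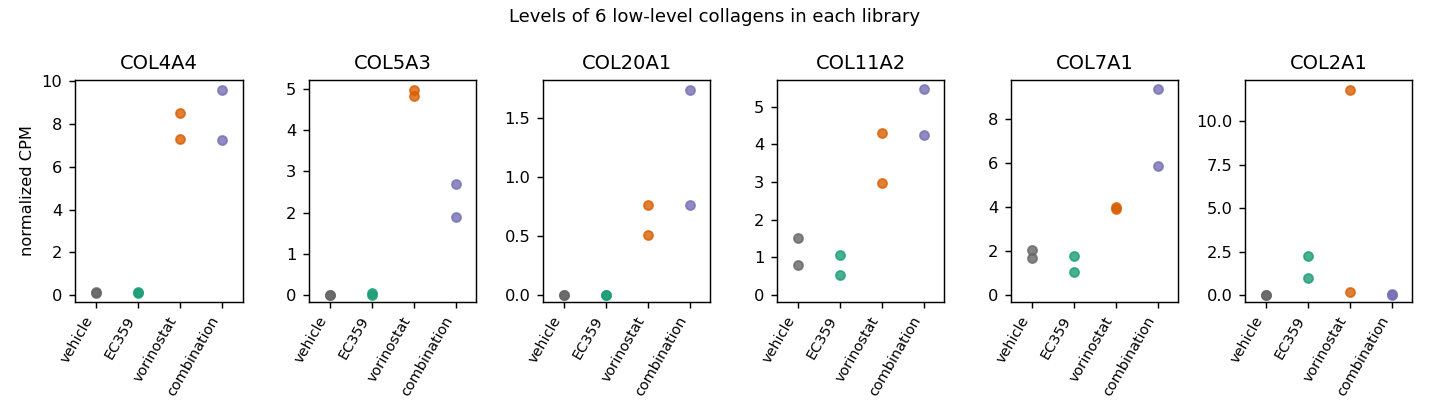
Normalized CPM of COL4A4, COL5A3, COL20A1, COL11A2, COL7A1 and COL2A1, each panel with its own linear scale and 1 point per library. COL4A4 lies at 7.27 to 9.60 CPM in the 4 libraries with vorinostat and at 0.165 CPM or less in the others, and COL2A1 is high in 1 vorinostat library only.

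COL18A1, the precursor of endostatin, was called in no comparison. It lay at 141 and 155 CPM with vehicle, 77.4 and 140 with EC359, 139 and 137 with vorinostat and 101 and 94.4 with the combination. All treated libraries lay below both vehicle libraries, and the EC359 libraries were far apart. The combination gave -0.60 ± 0.22 (adjusted p = 0.035). Exons of SLC19A1 overlap those of COL18A1 on the opposite strand, and whether the counting used strand is not given in the sources used here.

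Type VI collagen, which forms beaded filaments around cells, joins COL6A1, COL6A2 and COL6A3. COL6A1 lay at 274 and 249 CPM with vehicle, 187 and 176 with EC359, 144 and 151 with vorinostat and 88.2 and 98.0 with the combination, without overlap. It fell with the combination (-1.49 ± 0.10, adjusted p = 1.6e-06) and gave -0.53 ± 0.10 with EC359 (0.006) and -0.83 ± 0.10 with vorinostat (6.8e-05). COL6A2 lay at 183 and 176, 141 and 167, 191 and 192, and 189 and 183 CPM, and was called in no comparison. Against vehicle it gave -0.22 ± 0.10 for EC359, 0.09 ± 0.10 for vorinostat and 0.05 ± 0.10 for both drugs together. The log2 ratio COL6A1/COL6A2 per kilobase was 0.29 and 0.21 with vehicle, 0.12 and -0.21 with EC359, -0.69 and -0.63 with vorinostat and -1.39 and -1.19 with the combination.

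COL6A3 was lower than its partners and moved in another order. It lay at 12.2 and 11.1 CPM with vehicle, 19.999 and 19.1 with EC359, 4.68 and 5.78 with vorinostat and 5.32 and 4.29 with the combination. EC359 libraries were the highest, although the change of 0.75 ± 0.16 on the log2 scale was not called (adjusted p = 0.015). COL6A3 fell with vorinostat (-1.15 ± 0.18, 0.00037), with the combination (-1.28 ± 0.18, 0.00019) and from EC359 to the combination (-2.02 ± 0.18, 1e-05).

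**Figure D5:**
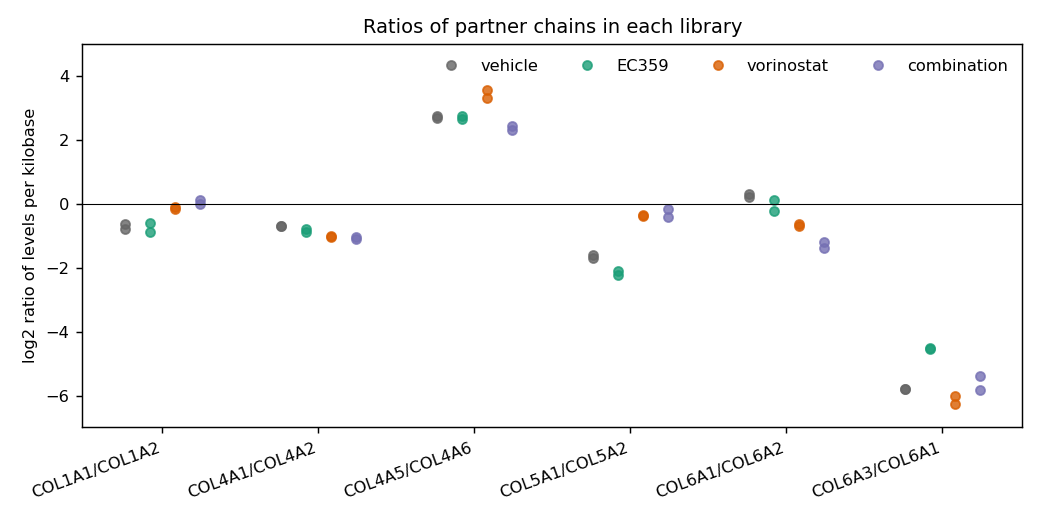
Log2 ratio of levels per kilobase of transcript for 6 pairs of partner chains, with 1 point per library. In COL1A1/COL1A2 and COL5A1/COL5A2 the libraries with vorinostat lie above those without it. In COL4A1/COL4A2 and COL6A1/COL6A2 they lie below, the latter at -1.39 and -1.19 with the combination. In COL4A5/COL4A6 the vorinostat libraries lie highest (3.29 and 3.54) and the combination libraries lowest (2.44 and 2.29).

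Of the FACIT collagens, which sit on the surface of fibrils, COL12A1 was the abundant one. It lay at 382 and 358 CPM with vehicle, 199 and 199 with EC359, 178 and 209 with vorinostat and 204 and 199 with the combination. All treated libraries lay below vehicle. The vorinostat libraries spanned those of EC359, and the combination libraries lay above EC359 by less than the spread between the vorinostat libraries. The log2 fold changes against vehicle were -0.90 ± 0.10 with EC359 (adjusted p = 0.00033), -0.94 ± 0.10 with vorinostat (3.3e-05) and -0.87 ± 0.10 with the combination (4.1e-05), all under the fold limit. From vorinostat to the combination the change was 0.06 ± 0.10.

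COL16A1, a FACIT chain of fibroblasts and smooth muscle, lay at 20.7 and 19.99 CPM with vehicle, 26.2 and 36.3 with EC359, 3.60 and 4.21 with vorinostat and 4.96 and 2.76 with the combination. The groups with vorinostat lay below all others. COL16A1 fell with vorinostat (-2.38 ± 0.26, adjusted p = 4.8e-05), with the combination (-2.40 ± 0.26, 4e-05) and from EC359 to the combination (-3.01 ± 0.26, 1e-05). COL20A1 had 0 counts in all 4 libraries without vorinostat, 10 and 18 with vorinostat and 34 and 15 with the combination. COL20A1 was tested only through the groups with vorinostat. Against a floor of 3 counts over the vehicle group it was at least 9.25-fold higher with vorinostat (adjusted p = 0.0053). With the combination it was at least 17.8-fold higher (0.0016). The vorinostat call was lost without any single vehicle or vorinostat library (adjusted p up to 0.028), and the combination calls without combination library 1 (0.011). COL21A1 lay between 0 and 0.664 CPM and was not called.

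COL7A1, the chain of the anchoring fibrils that fasten epidermis to dermis, lay at 1.70 and 2.06 CPM with vehicle, 1.07 and 1.78 with EC359, 3.91 and 3.996 with vorinostat and 9.37 and 5.87 with the combination. It rose with the combination against vehicle (2.02 ± 0.31, adjusted p = 0.00036) and against EC359 (2.43 ± 0.32, 0.00014). With vorinostat it gave 1.07 ± 0.32 (0.016) and was not called. COL28A1, a chain related to type VI, lay at 1.70 and 0.981 CPM with vehicle and between 0.205 and 0.495 CPM in the other 6 libraries. It was called lower with the combination (-2.11 ± 0.55, 0.0078), a call lost without any single vehicle, vorinostat or combination library (log2 fold changes -2.71 to -1.66). COL28A1 was tested only through vehicle, where it was highest, and the call was also lost without the filter. COL8A1, a network-forming chain of vessel walls, lay between 4.99 and 10.7 CPM and COL17A1, a transmembrane chain of hemidesmosomes, between 0.128 and 0.907 CPM, and neither was called.

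The combination was then compared with each single drug. Against vorinostat, 0 collagens were called higher and 2 lower, COL1A2 and COL3A1, where 3.37% and 0.876% of all tested genes were called higher and lower. Over all genes this was 462 higher and 120 lower, and 380 and 182 when libraries were scaled by their totals. The median over the 26 collagens was -0.07, beside -0.01 over all tested genes, and over the 12 abundant collagens it was -0.71, with 11 of 12 below 0. Whatever the fold, 7 collagens had an adjusted p under 0.01 and all 7 lay lower, where 8.45% and 5.26% of all tested genes lay higher and lower by this rule. These were COL1A1, COL1A2, COL3A1, COL5A1, COL5A2, COL4A5 and COL6A1. COL4A1, COL4A2 and COL4A6, by contrast, gave -0.09 ± 0.08, -0.04 ± 0.08 and 0.28 ± 0.15.

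Against EC359, the combination gave 5 collagens called higher (COL4A4, COL5A3, COL7A1, COL11A2 and COL20A1) and 5 called lower (COL3A1, COL5A2, COL6A3, COL16A1 and COL27A1). The shares of all tested genes were 19.8% and 13.9%. COL4A4, COL5A3 and COL20A1 had passed the filter only through the groups with vorinostat, so these counts are a description. The median was -0.53 over the 26 collagens and 0.06 over all tested genes. The interaction was called for 1 collagen, COL12A1, in the positive direction. At an adjusted p under 0.01, 1.62% and 0.482% of all tested genes were called positive and negative. COL4A6 fell just short of this limit, with an interaction of 1.23 ± 0.21 on the log2 scale (adjusted p = 0.0103). For COL12A1 it was 0.96 ± 0.14 on the log2 scale (adjusted p = 0.0048). This call was lost without any single vehicle, vorinostat or combination library, with values of 0.85 to 1.07 and adjusted p of 0.019 to 0.044. For the fibrillar chains COL1A1, COL1A2, COL3A1, COL5A1 and COL5A2 the interaction was 0.09 ± 0.10, -0.15 ± 0.15, -0.01 ± 0.19, 0.23 ± 0.12 and -0.36 ± 0.11 on the log2 scale, with adjusted p of 0.099 or more.

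Per kilobase of transcript, the order of the collagens differed between groups. With vehicle, COL1A2 was first at 747 ± 25.3 CPM per kilobase, followed by COL3A1 (484 ± 17.7), COL1A1 (460 ± 19.5) and COL5A2 (408 ± 6.54). COL3A1 and COL1A1 overlapped, and the others did not. With the combination COL1A1 (242 ± 8.92) and COL1A2 (233 ± 21.1) overlapped at the top, COL4A2 ranked 3 at 105 ± 3.13, and COL3A1 ranked 8 at 30.2 ± 4.95. COL6A2 ranked 9 with vehicle (52.2 ± 1.45) and 5 with the combination (54.1 ± 1.27).

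Collagen chains are hydroxylated, folded, trimmed and crosslinked by a set of dedicated proteins, which were followed as 5 lists of 62 genes, 52 of them tested. EC359 gave 1 called higher and 3 lower, vorinostat 5 and 12, the combination 8 and 12, and the combination against vorinostat 3 and 3. As shares of the 52 these were 1.92% and 5.77%, 9.62% and 23.1%, 15.4% and 23.1%, and 5.77% and 5.77%. The shares of all tested genes, in the same order, were 1.94% and 1.72%, 16.8% and 13.3%, 19.5% and 15.3%, and 3.37% and 0.876%. TLL2, TGM2, TNXB and ITGA1, called higher with the combination, lay under the filter's limit of 0.483 CPM with vehicle. They had passed the filter only through libraries with vorinostat and had to differ to be tested, so these counts are a description. With vorinostat and with the combination, the shares called higher lay below those of all genes and the shares called lower lay above them. These differences were not tested. Of the counts, the EC359 count was 2 without vehicle library 2, and the count of the combination against vorinostat was 3 without vorinostat library 2 or without combination library 2.

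In the list of chain modification and folding (19 tested), the combination gave 3 called higher and 4 lower, or 15.8% and 21.1%, beside 19.5% and 15.3% of all tested genes. SERPINH1 encodes HSP47, the collagen chaperone of the endoplasmic reticulum. It lay at 1395 and 1443 CPM with vehicle, 936 and 841 with EC359, 170 and 175 with vorinostat and 90.5 and 98.3 with the combination, in 4 separate groups. It fell with vorinostat (-3.04 ± 0.09, adjusted p = 1e-07) and with the combination (-3.91 ± 0.10, 1.8e-08). LEPREL2 (P3H3), a prolyl hydroxylase family member, fell by 3.53 on the log2 scale with the combination. PLOD2, the telopeptide lysyl hydroxylase, rose by 2.57, and MIA3 (TANGO1), which loads procollagen into transport carriers, rose by 1.14. P4HB, also called higher, lay at 1320 and 1305 CPM with vehicle and 2771 and 2832 with the combination. GLT25D2 (COLGALT2), a collagen galactosyltransferase, was the gene called higher with EC359, at 1.29.

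In the list of propeptide processing (9 tested), the combination gave 2 higher and 2 lower, or 22.2% each way, near the shares of all genes. TLL2, a tolloid protease, rose by 3.204 and ADAMTS14 by 2.04. ADAMTS2, an N-propeptidase like ADAMTS14, fell by 2.67, and the enhancer PCOLCE2 fell by 1.33. TLL2 was low, at 0.378 and 0.234 CPM with vehicle and 2.87 and 2.86 with the combination. Among crosslinking genes (5 tested), TGM2 rose by 2.96, and LOXL1 and PXDN fell by 3.44 and 1.97. TGM2 was low, at 0.425 and 0.420 CPM with vehicle and 3.99 and 2.66 with the combination. LOXL1 also fell with EC359, by 1.28. LOX, the main lysyl oxidase, lay at 1948 and 1838 CPM with vehicle and gave 0.01 ± 0.09 with EC359, -1.43 ± 0.10 with vorinostat and -0.72 ± 0.09 when combined, of which only the vorinostat change was called (adjusted p = 2.6e-06).

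In the fibril-associated matrix (11 tested), FBN1 (fibrillin) fell by 1.83 with EC359 and 2.72 with the combination. LUM, a fibril-binding proteoglycan, fell by 1.52 with EC359, and TNXB rose by 3.79 with the combination. TNXB was low, at 0.0944 and 0.187 CPM with vehicle and 2.10 and 1.94 with the combination. SPARC, which binds procollagen, lay at 3460 and 3458 CPM in the vehicle libraries and 912 and 903 in those of the combination, and it fell by 1.93 against vehicle (adjusted p = 7.1e-08) and by 1.08 against vorinostat (1.4e-05). Of the 6 pathway genes called from vorinostat to the combination, SPARC, LEPREL2 and LOXL1 fell and FN1, CD44 and ADAMTS14 rose. FN1 lay at 1879 and 2039 CPM with vorinostat and 4384 and 4588 with the combination. CD44 lay at 775 and 763, then 2028 and 2093 CPM. The interaction was called for FN1 and THBS1, both positive, or 3.85% of the 52 tested pathway genes, beside 1.62% of all tested genes. Of the receptors (8 tested), DDR2, a tyrosine kinase that binds fibrillar collagen, lay at 117 and 117 CPM with vehicle, 121 and 107 with EC359, 13.1 and 13.1 with vorinostat and 12.6 and 10.8 with the combination. DDR2 fell with vorinostat (-3.16 ± 0.12, 2.1e-07) and with the combination (-3.32 ± 0.12, 7.1e-08). ITGA10 fell by 1.45 with the combination. ITGA1 was called higher with the combination, where it lay at 0.614 and 0.970 CPM and at 0 and 0.0467 CPM with vehicle.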

How the data were processed

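As the labels and the paper's methods describe, single-end 50 bp reads from TruSeq libraries were aligned to hg19 with TopHat2 (2.0.8b in the submitters' processing notes) and counted on RefSeq genes with HTSeq. The values deposited by the authors are raw read counts per gene symbol and library, without normalization, and the strand setting is not given in the sources used here. The HTSeq summary lines were left out of the library totals. Reads outside genes were 11.0% to 14.2% and ambiguous reads 0.649% to 0.85% of the unique alignments.

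Genes were filtered with filterByExpr by group and scaled by TMM in edgeR 4.0.16 (R 4.3.3), and the 8 libraries were modelled together by quasi-likelihood with group as the only term (glmQLFit, glmQLFTest). The 5 comparisons between groups and the interaction received Benjamini-Hochberg adjusted p-values over all 13694 tested genes. An SE was obtained as |log2 fold change| over the root of the F statistic. The limits on the adjusted p and on the log2 fold change were those the paper applied to its transcriptome, for which it used DESeq. The interaction was called on the adjusted p alone.

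All tested collagens are named, with values in every library for those called in at least 1 test or with an average log2 CPM of at least 5. From the pathway lists, up to 2 genes per direction with the largest called changes in the combination and in EC359 against vehicle are named, with SERPINH1, LOX, SPARC and DDR2 always. P4HB, and the pathway genes called in the combination against vorinostat or in the interaction, are named in addition. The collagens, classes and lists were chosen with earlier results of these data known. Coordinates and transcript lengths are from GENCODE v44 lifted to GRCh37, and promoter sequences from RefSeq, read on GRCh37. Counting intervals are exact and cover counting error only.

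Alternatives were DESeq2 1.42.0, RLE or total-count scaling, other filters and thresholds, fits on 4 libraries, a replicate block, and leaving out each library in turn, where the lone library of a group was assumed to vary like the others. A crossed block was added after seeing the data. The procedure was tested on simulated data. Figures were drawn with Python 3.11.15.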

Additional observations from a re-analysis of the deposited data

Results flagged for a closer look

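The interaction of EC359 and vorinostat was 0.96 ± 0.14 on the log2 scale for COL12A1 (adjusted p = 0.0048, edgeR's quasi-likelihood test), so it was flagged because the change under EC359 differed between cells without and with vorinostat. COL12A1 had a log2 fold change of -0.90 with EC359 against vehicle and of 0.06 with the combination against vorinostat. The treated groups lay at like levels, 199 and 199 CPM with EC359, 178 and 209 with vorinostat and 204 and 199 with the combination, below the 382 and 358 CPM of vehicle. The call was lost with the replicate block (adjusted p = 0.011) and without any single vehicle, vorinostat or combination library (0.019 to 0.044). The cause was not tested.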

How the results depend on the processing

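The 45 collagen calls were recomputed in 715 alternatives, of which 671 kept direction and call, 44 lost the call and 0 reversed. Apart from leaving out libraries, 3 calls were lost: COL1A2 with EC359 (-0.99 without a filter on low counts and in the fit on 4 libraries), COL28A1 with the combination (adjusted p = 0.017 by DESeq2 and 0.011 without a filter) and the interaction of COL12A1 (block below). Leaving out a library cost 10 calls in at least 1 case. Without a fold threshold, the collagens called were 10 for EC359, 7 for the combination against vorinostat and 16 for the combination against EC359, and the pathway genes 9, 35, 38 and 19 for EC359, vorinostat, the combination and the combination against vorinostat. For the combination against vorinostat, 4 collagens were called without a filter and 4 at an adjusted p under 0.05. The interaction was called for 3 collagens by DESeq2 and 3 without a filter (COL12A1, COL4A6 and COL2A1), and 2 at an adjusted p under 0.05. In the fit on 4 libraries, 2 pathway genes were called for EC359. Leaving out each library in turn gave 0 to 3 collagens for the interaction, 2 to 5 pathway genes for EC359 and 3 to 6 for the combination against vorinostat. Summed collagen CPM with total counts was 16407 for vehicle and 9467 for vorinostat, and 9394 for vorinostat with RLE. For these counts and sums the cause was not tested.

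Over all genes, 502 were called for EC359, with 189 in the fit on 4 libraries, 300 or 295 without vehicle library 1 or 2, and 927 without EC359 library 2. For the combination against vorinostat 582 were called, with 297 or 290 without vorinostat library 1 or 2 and 349 or 370 without combination library 1 or 2. The interaction was called for 288 genes, with 713 by DESeq2 and 925 at an adjusted p under 0.05. It was called for 1419 or 1437 genes without EC359 library 1 or 2, and for 55 to 71 without any other single library. Without a fold threshold, 1071 genes were called for EC359, 7130 for vorinostat (4123 with it), 7718 for the combination (4763), 1877 for the combination against vorinostat and 7642 for the combination against EC359 (4620).

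Replicate numbers come from the sample titles alone. Deviations of same-numbered libraries correlated between -0.17 and 0.23 over the 6 pairs of groups, so the numbers were not taken as a pairing. With the replicate block, 0 collagens had an interaction (COL12A1 adjusted p = 0.011) and COL28A1 lost its call with the combination (0.016), while 189 genes had an interaction over all genes. With the combination numbers crossed, chosen after seeing the data, 3 collagens and 477 genes had one.

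With 2 libraries a group, a single library sets much of each spread, and low genes such as COL20A1, COL28A1 and COL11A2 rest on few counts. Reads of overlapping genes on opposite strands (COL18A1 with SLC19A1) cannot be assigned where strand was not used. Values are for 1 cell line at 1 time point and dose of each drug.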
